A study of Mus musculus with 14 samples.

Results

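Transcripts of 10 genes of the p53 response and of the INK4 locus were followed in stromal cell clones from mouse bone marrow: Cdkn1a, Mdm2, Ccng1, Cdkn2a, Cdkn2b, Trp53inp1, Zmat3, Gdf15, Sesn2 and Plk2. They were chosen by name as p53 targets and INK4 inhibitors. All 10 were found by symbol among the 23331 genes of the count table, and all 10 were among the 13896 genes with enough reads to test. The cells came from the long bones of adult C57Bl/6 mice that carry the irtTA-GBD*-TAg transgene, from which large T antigen is made only in the presence of dexamethasone and doxycycline. Every clone was expanded with both inducers (doxycycline at 1 µg/ml) and sequenced after 3 days without them. Groups are named by the lineages that their clones could form, osteogenic (O), adipogenic (A) and chondrogenic (C). There were 3 libraries each of tripotent OAC, bipotent OA, unipotent O and unipotent A cells, and 1 library each of the bipotent pools OC3 and AC3. Libraries numbered 1 and 2 each come from 1 clone, and the 2 clones of a group from different animals. Those numbered 3 pool further clones of the same 2 mice. A p-value therefore measures the spread between these clones and pools, and a group mean rests on few cells of origin. Every group carried the transgene and had been through induction, so none of them shows these genes in cells without it.

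The protein p53 is a transcription factor that stops the cell cycle or starts cell death after damage and other stress. Its target Cdkn1a encodes p21, an inhibitor of cyclin-dependent kinases, and its target Mdm2 encodes the ubiquitin ligase that degrades p53, which closes a feedback loop. The INK4 locus holds Cdkn2b, which encodes p15INK4b, and Cdkn2a, which encodes p16INK4a and, from another first exon, p19ARF. Both INK4 proteins inhibit CDK4 and CDK6 and so keep RB family proteins active, while p19ARF binds MDM2 and stabilizes p53. Large T antigen binds p53 and RB family proteins, and INK4 transcripts commonly build up in stromal cells kept in culture. The level of the T antigen transcript was not analysed here.

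Upstream sequences of 3 of the genes are shown, because they show matches to the repeat unit of the p53 element in p53 targets and the separate starts of the INK4 gene whose values follow. Each is the 250 bases before a RefSeq transcript start, 5′ to 3′ on the gene's strand, in build GRCm38.p6, which is later than the mm9 build of the counts. Capitals in the first 2 mark the p53 decamer, of which a full response element holds a pair, searched by its consensus on both strands. Capitals in the upstream sequence of Cdkn2a mark the GC box GGGCGG, also searched on both strands, and its downstream sequence holds neither motif.
Cdkn1a, upstream start, chr17:29090729-29090978, plus strand: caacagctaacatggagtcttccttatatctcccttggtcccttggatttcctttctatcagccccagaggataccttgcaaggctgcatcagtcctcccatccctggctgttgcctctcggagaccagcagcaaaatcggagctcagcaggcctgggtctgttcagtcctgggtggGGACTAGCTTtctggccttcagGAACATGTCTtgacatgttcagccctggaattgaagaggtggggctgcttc
Mdm2, chr10:117710759-117711008, minus strand: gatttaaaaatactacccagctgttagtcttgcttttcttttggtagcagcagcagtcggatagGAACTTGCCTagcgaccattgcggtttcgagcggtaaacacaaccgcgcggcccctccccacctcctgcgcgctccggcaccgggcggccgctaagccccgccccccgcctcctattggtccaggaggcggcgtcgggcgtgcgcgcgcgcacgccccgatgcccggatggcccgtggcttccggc
Cdkn2a, upstream start, chr4:89294620-89294869, minus strand: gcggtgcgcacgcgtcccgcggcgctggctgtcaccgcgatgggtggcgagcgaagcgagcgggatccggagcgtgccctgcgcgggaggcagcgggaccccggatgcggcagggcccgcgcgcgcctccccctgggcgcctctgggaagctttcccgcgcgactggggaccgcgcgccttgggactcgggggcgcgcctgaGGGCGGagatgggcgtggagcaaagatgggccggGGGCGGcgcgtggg
Cdkn2a, downstream start, chr4:89282193-89282442, minus strand: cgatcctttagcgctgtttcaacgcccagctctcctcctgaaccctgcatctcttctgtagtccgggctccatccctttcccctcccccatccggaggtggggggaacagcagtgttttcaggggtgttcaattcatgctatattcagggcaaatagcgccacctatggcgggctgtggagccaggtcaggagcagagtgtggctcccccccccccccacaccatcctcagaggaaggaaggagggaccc

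RefSeq windows were matched for 8 of the 10 genes, with 11 starts in all. The decamer was found before 3 of the 11 starts, 1 each of Cdkn1a, Mdm2 and Ccng1, and in 7.13% of all 32851 RefSeq windows of this length. In the Cdkn1a window it occurs as GGACTAGCTT and GAACATGTCT, and in the Mdm2 window as GAACTTGCCT. The 2 Cdkn1a matches are separate and were not searched for as a pair. The letters right after GAACATGTCT miss the consensus at their first base, so they stand in lower case. The second Cdkn1a start lies 2790 bases downstream and its window holds no match. The GC box was found before 5 of the 11 starts and in 32.7% of all windows. A match describes letters in a window, and no binding was measured. The 2 starts of Cdkn2a lie 12427 bases apart. The table has 1 count for the whole gene, so p16INK4a and p19ARF transcripts cannot be told apart in any Cdkn2a value below.

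Levels are given as CPM, the count scaled to the TMM-adjusted size of its library, with the SD over 3 libraries unless another n is named. In bulk libraries fewer cells with a transcript and less of it per cell cannot be told apart. Levels of different genes can be compared only per kilobase of exon. On that scale, averaged over the 14 libraries, Cdkn2a stood at 451.7 CPM per kilobase, above 99.5% of the genes tested, and Cdkn1a at 357.9, above 99.3%. Ccng1 (135.6), Cdkn2b (119.7) and Mdm2 (72.8 CPM per kilobase) followed. Plk2 (44.7), Sesn2 (41.7), Gdf15 (33.8) and Zmat3 (26.1 CPM per kilobase) were lower, and Trp53inp1 was the lowest at 18.8, above 76.6% of the genes tested. The p21 and INK4/ARF transcripts were thus among the most abundant mRNAs per length in these cells. Trp53, which encodes p53, ranged from 75.2 CPM in AC3 to 214.5 CPM in O1, and its log2 fold change lay between -0.41 and 0.09 in the 7 comparisons made, with no edgeR FDR below 0.924.

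Properties of the libraries bear on these levels. Total counts ran from 16888190 to 26076539. Within a library, the deviation of genes from their mean over the libraries followed GC content, with a Spearman rho across genes from -0.56 in OAC3 and OC3 to 0.67 in OA2 and 0.53 in O1. Levels are therefore also given as GC-corrected CPM, from which each library's trend on GC content was taken off. Stromal markers summed to between 17925.3 and 84330.2 CPM, although Lepr among them was at most 2.73 CPM. Of the 7 blood markers 5 were matched by symbol and summed to 4.3 to 229.7 CPM, highest in O1. There Cd74 stood at 188.3 CPM and Lyz2 at 37.2 CPM, both the highest of the 14 libraries, Csf1r at 4.07 CPM and Itgam at 0.127 CPM. Ptprc, the defining pan-leukocyte gene, was at 0 in O1 and at most 0.0379 CPM in any library. Endothelial, muscle and neural markers summed to at most 6.56, 0.526 and 30.2 CPM.

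**Figure D1:**
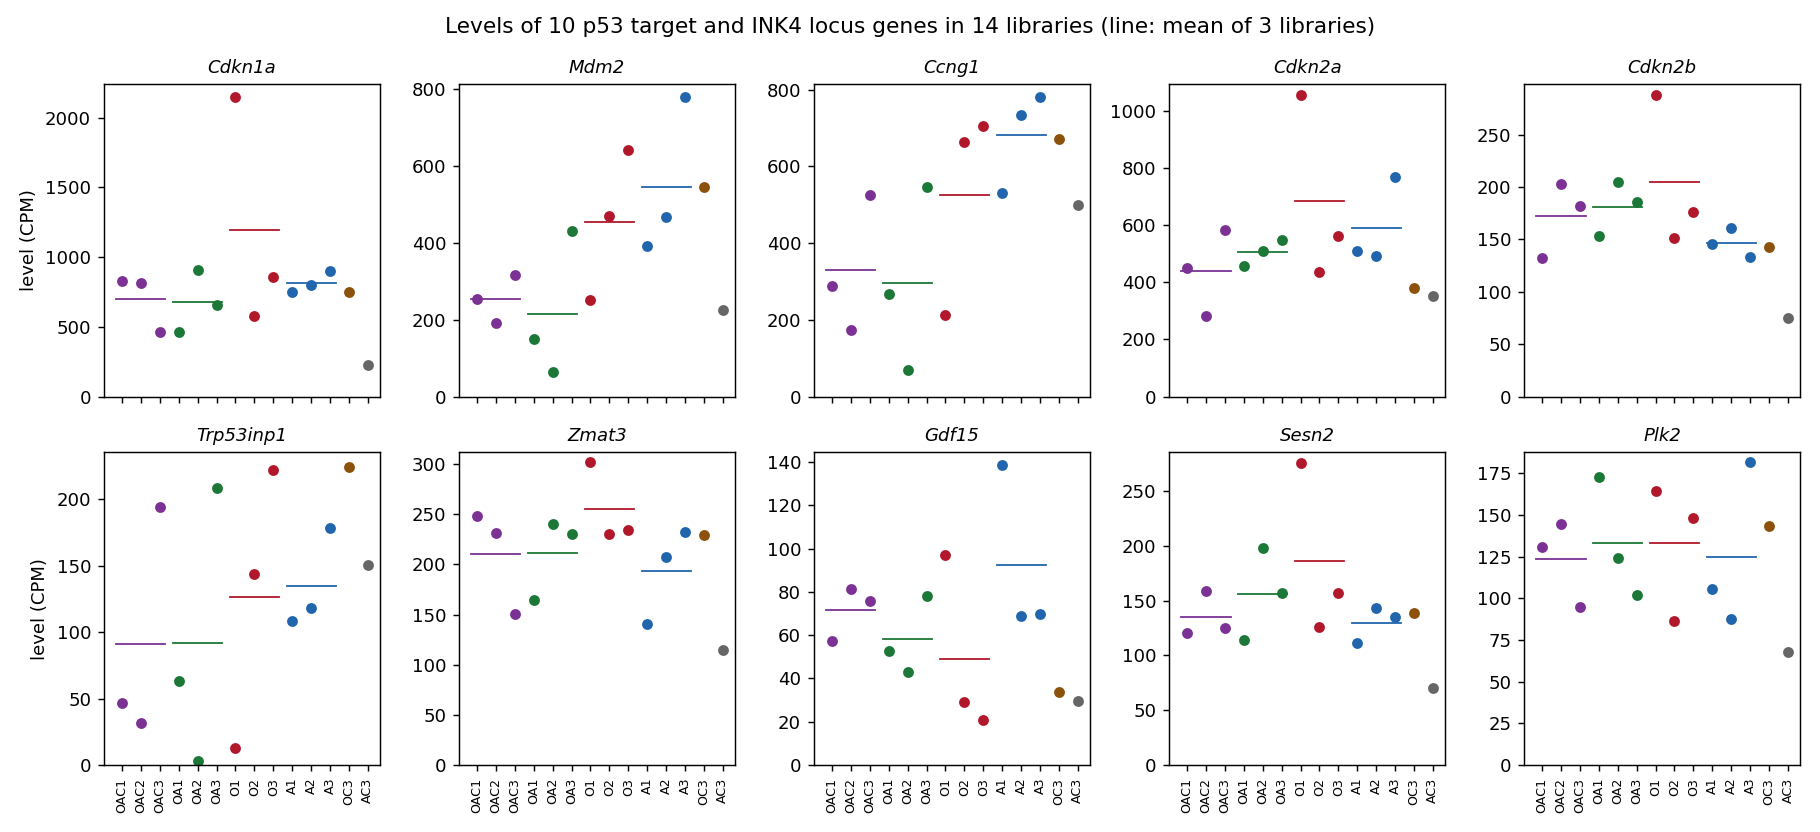
Level in CPM (vertical axes, from 0) of the 10 genes in each of the 14 libraries (horizontal axis), with points coloured by group and lines at the means of the 4 groups of 3. O1 is the highest point for Cdkn1a, Cdkn2a, Cdkn2b, Zmat3 and Sesn2, and OA2 the lowest for Mdm2, Ccng1 and Trp53inp1.

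None of the 10 genes passed the edgeR quasi-likelihood test (Benjamini-Hochberg FDR under 0.05) in any of the 7 comparisons. DESeq2 also called 0 of the 10 in each of them. Of all genes tested, edgeR called 0 to 0.00720% and DESeq2 0 to 3.03% in a comparison. A count of 0 among 10 is near those shares and does not show that these genes were unchanged. At an unadjusted edgeR p under 0.05 there was 1 gene, Mdm2, in the multipotent (OAC and OA) vs unipotent (O and A) comparison, and 0 in the other 6. Of all genes tested, 4.86% were below that p in this comparison and 1.17% to 9.89% in the other 6. Over the 70 pairs of gene and comparison the log2 fold change ran from -1.35 to 0.55, with an SE of 0.19 to 1.23, and 6 pairs exceeded 1 in size. Precision differed between genes. Over the 7 comparisons the 95% intervals of the log2 fold change reached from -0.87 to 0.85 for Plk2 and from -0.83 to 1.07 for Cdkn2b, but from -3.30 to 2.71 for Trp53inp1. Large differences in Trp53inp1 would not have been detectable with this spread.

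**Figure D2:**
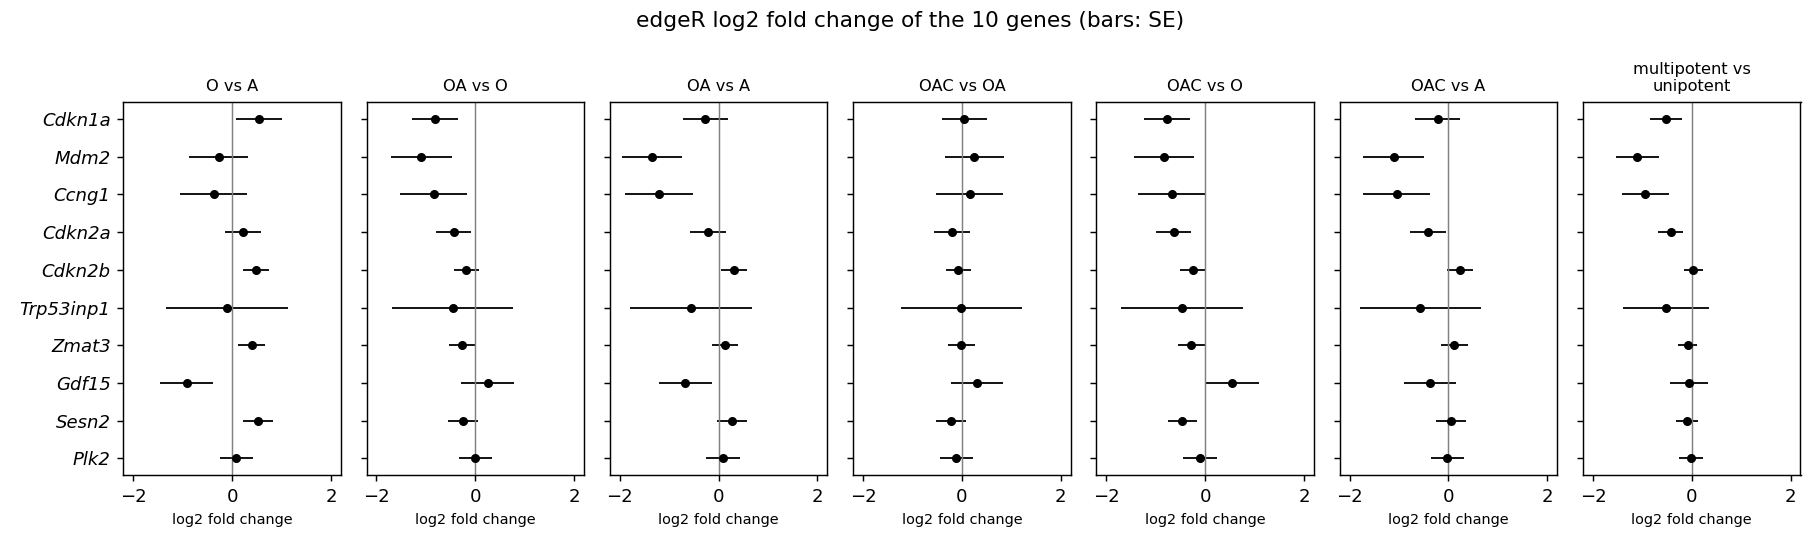
edgeR log2 fold change (horizontal axes) of the 10 genes in the 7 comparisons, with bars of 1 SE. Values lie between -1.35 and 0.55, and the Trp53inp1 bars are the widest, up to 1.23.

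Cdkn1a was the most variable of the 3 cell-cycle inhibitors among the 10 genes. It stood at 830.2, 811.7 and 459.3 CPM in OAC1, OAC2 and OAC3, at 466.1, 906.8 and 657.4 CPM in OA1, OA2 and OA3, and at 2147.2, 576.8 and 858.8 CPM in O1, O2 and O3. The A libraries held 749.5, 797.9 and 896.7 CPM. The pools had 752.2 CPM in OC3 (exact Poisson 95% interval 741.8 to 762.8) and 228.8 CPM in AC3 (223.0 to 234.8), intervals that cover counting error only. The clone O1 thus stood at 2.85 times the median of the other 13 libraries, and the median of the libraries other than AC3 was 3.49 times the AC3 level. The order of the group means was O (1194.3 ± 837.2 CPM), A (814.7 ± 75.0), OAC (700.4 ± 209.0) and OA (676.7 ± 221.0), and every neighbouring pair overlapped. In OA vs O, where Cdkn1a had the lowest p of the 10 genes, its log2 fold change was -0.82 ± 0.46 (SE, edgeR FDR = 0.948), and without O1 it was -0.08. After GC correction O1 was still the highest at 1744.3 CPM and AC3 the lowest at 259.5 CPM.

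Cdkn2a was less variable, with a ratio of 3.73 between the highest and the lowest library. It stood at 451.6, 283.5 and 585.3 CPM in the OAC libraries and at 458.2, 508.4 and 548.2 CPM in the OA libraries. The O libraries held 1057.9, 438.1 and 563.0 CPM and the A libraries 510.8, 490.9 and 768.0 CPM, with 381.7 CPM in OC3 and 353.6 CPM in AC3. O1 was again the highest, and all 4 groups of 3 overlapped. The group means were 686.3 ± 327.8 CPM in O, 589.9 ± 154.6 in A, 504.9 ± 45.1 in OA and 440.1 ± 151.2 in OAC. The log2 fold change of OAC vs O was -0.64 ± 0.36 (SE, edgeR FDR = 0.881), and -0.19 without O1 or -0.40 without OAC2. After GC correction O1 (760.3 CPM) and A3 (756.7 CPM) were nearly level.

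Cdkn2b, which lies beside Cdkn2a, stood at 132.6 to 204.9 CPM in the OAC and OA libraries. In the O libraries it stood at 288.2, 151.7 and 176.1 CPM and in the A libraries at 145.4, 160.9 and 133.4 CPM, with 142.9 CPM in OC3 and 75.1 CPM in AC3. The O and A groups overlapped, since O2 lay below A2. The log2 fold change of O vs A was 0.49 ± 0.26 (SE, edgeR FDR = 0.617) and 0.16 without O1. Across the 14 libraries the Pearson r of log2(CPM + 1) between Cdkn2a and Cdkn2b was 0.48, and 0.25 after GC correction. Of the other genes around the locus, Mtap, a methionine salvage enzyme, ranged from 77.3 to 168.8 CPM and was also highest in O1. Klhl9 ranged from 4.82 CPM in OA2 to 98.6 CPM in OAC3, Dmrta1 was at most 2.51 CPM, and the neuronal gene Elavl2 stayed below 1 CPM and was not tested. The 3 neighbours tested showed 0 calls in either direction in each comparison, where edgeR called at most 0.00720% of all genes.

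Mdm2, the p53 ubiquitin ligase, had the lowest p of the 10 genes in 3 comparisons, without passing the test. It stood at 254.1, 190.4 and 315.1 CPM in the OAC libraries and at 148.5, 62.9 and 429.5 CPM in the OA libraries. In the O libraries it stood at 251.9, 468.5 and 640.6 CPM and in the A libraries at 391.4, 466.7 and 777.4 CPM, with 543.7 CPM in OC3 and 224.2 CPM in AC3. All 3 OAC libraries lay below all 3 A libraries, while OA overlapped with A through OA3, and OAC with O through O1. The 6 multipotent libraries averaged 233.4 ± 129.4 CPM (SD, n = 6) and the 6 unipotent ones 499.4 ± 185.6 CPM (SD, n = 6). That log2 fold change was -1.10 ± 0.43 (SE, 95% interval -2.05 to -0.14), with an edgeR FDR of 0.998 and a DESeq2 adjusted p of 0.447. It was -1.11 ± 0.61 in OAC vs A (edgeR FDR = 1) and -1.35 ± 0.61 in OA vs A (edgeR FDR = 0.953), and the latter was -2.37 without OA3, -1.01 without A3 and -0.93 without OA2. After GC correction the means of the multipotent and unipotent libraries were 227.5 and 479.6 CPM. Of the 70 pairs of gene and comparison, Mdm2 in multipotent vs unipotent was the only 1 with a 95% interval excluding 0.

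Ccng1, which encodes cyclin G1, a partner of protein phosphatase 2A in the control of MDM2, ran parallel to Mdm2 before correction. It stood at 287.9, 173.9 and 524.4 CPM in the OAC libraries and at 268.4, 70.4 and 546.1 CPM in the OA libraries. The O libraries held 211.5, 662.3 and 705.0 CPM, the A libraries 530.4, 733.9 and 780.0 CPM, OC3 672.0 CPM and AC3 500.3 CPM. All 3 OAC libraries lay below all 3 A libraries, with a log2 fold change of -1.05 ± 0.68 (SE, edgeR FDR = 1), or -0.68 with GC correction. Its transcripts have a GC content of 39.5%, and its level followed the GC trend of the library with an r of -0.84. The correction raised OA2 from 70.4 to 618.1 CPM and O1 from 211.5 to 877.9 CPM. O1 then became the highest library and AC3 the lowest, and OAC (346.9 ± 89.6 CPM) and A (557.2 ± 74.9 CPM) kept their order. The corrected level went with the GC trend of the library with an r of 0.64. The correction thus turned that relation and did not remove it, and the corrected values of OA2 and O1 carry this limit.

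Trp53inp1, a p53-induced nuclear protein linked to autophagy and cell death, had the widest range of the 10 genes. It stood at 47.0, 31.4 and 194.3 CPM in the OAC libraries and at 63.5, 2.89 and 208.5 CPM in the OA libraries. The O libraries held 13.1, 143.8 and 221.9 CPM, the A libraries 108.8, 118.0 and 178.2 CPM, OC3 224.4 CPM and AC3 150.3 CPM. The lowest value, in OA2, came from 54 reads, and the highest was 77.6 times greater. With a GC content of 39.4% it followed the GC trend of the library with an r of -0.91. After correction that r was -0.65, and the ratio of the highest to the lowest library was 5.11. The part of the GC trend in the Ccng1 and Trp53inp1 comparisons was not tested beyond these values and the GC-corrected fits, which called 0 of the 10 genes.

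**Figure D3:**
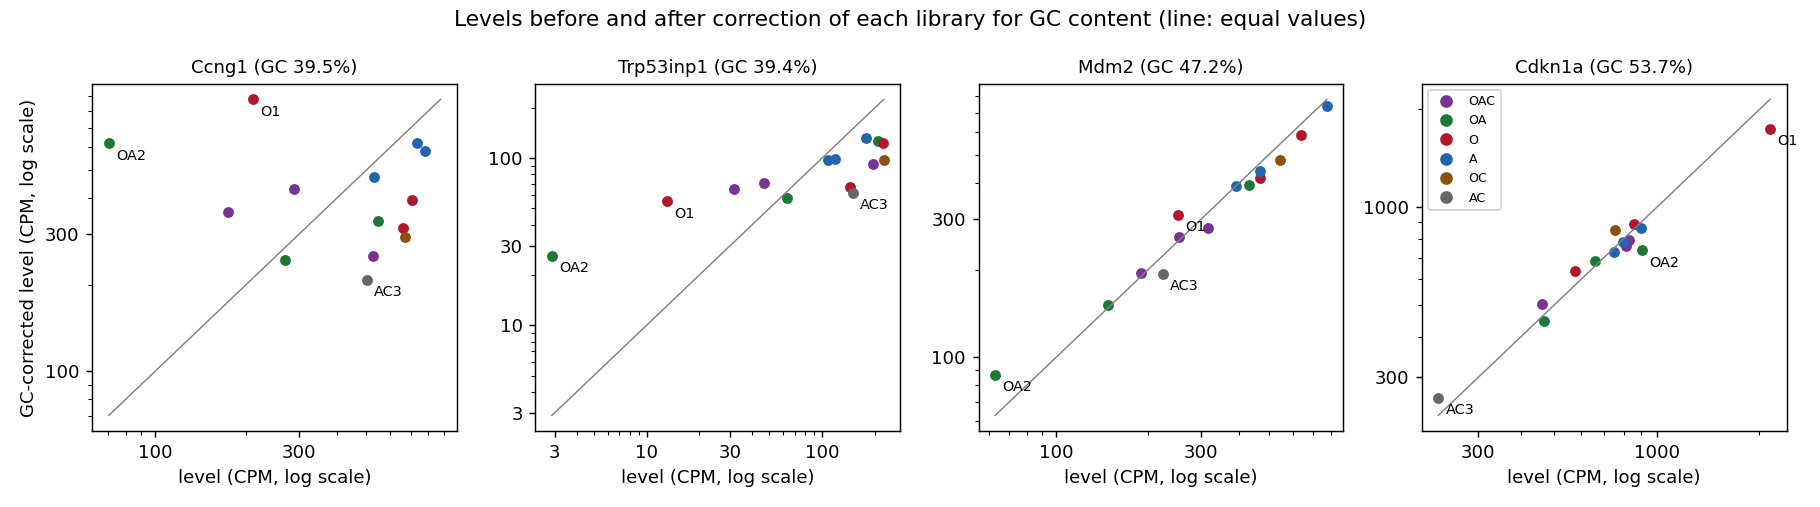
Level before (horizontal axes) and after GC correction (vertical axes, CPM, log scales) of Ccng1, Trp53inp1, Mdm2 and Cdkn1a in the 14 libraries, coloured by group, with a line of equal values. OA2 and O1 lie far above the line for Ccng1 and Trp53inp1, where OA2 moves from 70.4 to 618.1 and from 2.89 to 25.9 CPM.

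Gdf15, a secreted stress cytokine induced by p53 and by ATF4, was uneven within the O group. The O libraries held 96.9, 29.0 and 20.8 CPM and the A libraries 138.6, 68.9 and 70.0 CPM. The OAC libraries held 57.5, 81.5 and 75.9 CPM and the OA libraries 52.7, 43.1 and 78.2 CPM, with 33.6 CPM in OC3 and 29.7 CPM in AC3. Before GC correction O2 and O3 were the lowest of the 14 libraries and O1 the second highest. O (48.9 ± 41.8 CPM) and A (92.5 ± 39.9 CPM) then overlapped only through O1. Its GC content is 61.7%, and after GC correction the O libraries held 67.3, 35.6 and 22.9 CPM. The A libraries then held 120.1, 71.8 and 69.9 CPM, so O1 lay narrowly below all of them. The log2 fold change of O vs A was -0.92 ± 0.54 (SE, edgeR FDR = 0.667), or -1.06 with GC correction (edgeR FDR = 0.382). Without O1 it was -1.89 (edgeR FDR = 0.343), and without O1 and OA2 it was -1.92 (edgeR FDR = 0.152). It was -0.51 without A1, -0.56 without O3 and -0.65 without O2. This comparison was singled out after its values were seen.

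The remaining 3 targets had ratios of the highest to the lowest library of 2.63 (Zmat3), 2.70 (Plk2) and 3.93 (Sesn2). Zmat3, an RNA-binding protein of the p53 response, stood between 114.8 CPM in AC3 and 302.3 CPM in O1. Sesn2, a sestrin that restrains mTORC1 under stress, stood between 70.0 CPM in AC3 and 275.2 CPM in O1, and in O vs A, where its own p was lowest, it had a log2 fold change of 0.52 ± 0.30 (SE, edgeR FDR = 0.67). In OAC vs OA it had the lowest p of the 10 genes, at -0.22 ± 0.30 (SE, edgeR FDR = 1). The Sesn2 values were 120.4, 158.7 and 125.1 CPM in the OAC libraries and 114.0, 198.1 and 157.0 CPM in the OA libraries, which overlap. Plk2, a polo-like kinase, stood between 67.5 CPM in AC3 and 181.8 CPM in A3, and its group means were 123.4 to 133.1 CPM. AC3 was the lowest library for all 3, as for Cdkn1a and Cdkn2b, both before and after GC correction. AC3 has no replicate, so this describes 1 pool.

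The comparisons are set against all genes tested as follows. In O vs A the 10 genes had a median log2 fold change of 0.15 (0.03 over all genes), 6 above 0 and 4 below, with 0 called and 0 without overlap. The FDR called 0.00720% of all genes, an unadjusted p under 0.05 held for 9.89%, DESeq2 called 3.03%, and 15.6% did not overlap. In OA vs O the median was -0.36 (-0.08 over all genes), with 1 gene above 0 and 9 below. There the FDR called 0% of all genes, the unadjusted p 5.43% and DESeq2 0.309%, and 8.20% did not overlap. In OA vs A the median was -0.25 (-0.03 over all genes), with 4 above 0 and 6 below. There the FDR called 0.00720% of all genes, the unadjusted p 5.27% and DESeq2 0.937%, and 11.0% did not overlap.

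In OAC vs OA the 10 genes had a median of -0.01 (0 over all genes), with 4 above 0 and 6 below. There the FDR called 0% of all genes, the unadjusted p 1.17% and DESeq2 0%, and 4.93% did not overlap. In OAC vs O the median was -0.47 (-0.06 over all genes), with 1 gene above 0, Gdf15, and 9 below. There the FDR called 0% of all genes, the unadjusted p 6.02% and DESeq2 0.728%, and 11.5% did not overlap. In OAC vs A the median was -0.29 (-0.03 over all genes), with 3 above 0 and 7 below, and 2 of the 10 did not overlap, against 10.8% of all genes. There the FDR called 0.00720% of all genes, the unadjusted p 3.58% and DESeq2 0.411%. In the multipotent vs unipotent comparison the median was -0.26 (-0.04 over all genes), with 1 above 0, Cdkn2b, and 9 below. There the FDR called 0% of all genes, the unadjusted p 4.86% and DESeq2 0.223%, and 0.288% did not overlap. These comparisons share libraries, so their medians are not separate evidence.

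Beyond the 10 genes, 29 of 30 listed p53 pathway genes were tested and 0 were called in either direction in each comparison. Of all genes, edgeR called at most 0.00720% in a comparison. In the multipotent vs unipotent comparison their median log2 fold change was -0.25 (-0.04 over all genes). There 4 were lower and 0 higher at an unadjusted edgeR p under 0.05, which held for 4.86% of all genes. Gtse1, a G2 and S phase protein that binds p53, stood at 94.6 ± 13.6 CPM (SD, n = 6) in the multipotent and 137.0 ± 33.9 CPM (SD, n = 6) in the unipotent libraries. Ppm1d, the WIP1 phosphatase that switches off p53 signalling, stood at 17.1 ± 3.35 CPM and 24.9 ± 2.83 CPM (SD, n = 6 each). Their log2 fold changes were -0.54 ± 0.18 and -0.53 ± 0.17 (SE, edgeR FDR = 0.998 for both). Psrc1 stood at 100.5 ± 15.0 CPM in OAC and 161.5 ± 21.2 CPM in O (edgeR FDR = 0.763).

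The 12 listed CDK inhibitors and INK4 regulators, the 22 RB-E2F genes and the 10 proliferation genes had 0 calls in either direction in each comparison, where edgeR called at most 0.00720% of all genes. Cbx7, a Polycomb protein that represses the INK4 locus, stood at 7.85 ± 0.849 CPM in OAC and 14.7 ± 8.29 CPM in O (edgeR FDR = 0.808), and O1 alone held 24.2 CPM. Ets2 and Ets1, factors that activate Cdkn2a, had log2 fold changes of 0.83 ± 0.36 in OA vs O and -0.89 ± 0.41 in O vs A (edgeR FDR = 0.911 and 0.515). Of the RB-E2F genes, E2f1 had 0.79 ± 0.37 in OA vs O, Rbl2 -0.59 ± 0.29 in OA vs A and Cdk6 -1.95 ± 1.03 in OAC vs O (edgeR FDR = 0.913, 0.984 and 0.862). Of the proliferation genes, Rrm2 had 0.74 ± 0.52 in OA vs O, and Mcm2 and Pcna had -0.49 ± 0.35 and -0.62 ± 0.45 in O vs A (edgeR FDR = 0.96, 0.772 and 0.784).

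The 16 listed genes of the ATF4 stress response, which shares Gdf15 and Sesn2 with p53, had members called by DESeq2, but none by edgeR, in O vs A, OA vs A and OAC vs A, which share the A libraries. In O vs A their median log2 fold change was 1.00 (0.03 over all genes). There 10 were higher and 0 lower at an unadjusted edgeR p under 0.05, which held for 9.89% of all genes, and 0 passed the FDR. DESeq2 called 5 of the 16 higher, Atf4, Trib3, Asns, Shmt2 and Mthfd2, against 3.03% of all genes called. It called Trib3 and Mthfd2 higher in OA vs A and Mthfd2 in OAC vs A, against 0.937% and 0.411% of all genes. The medians of the list were 0.70 and 0.43 there (-0.03 over all genes in both). Mthfd2, a mitochondrial folate enzyme, stood at 184.8, 156.0 and 142.6 CPM in the O libraries and at 61.5, 56.7 and 56.4 CPM in the A libraries (log2 fold change 1.47 ± 0.23, SE, edgeR FDR = 0.122, DESeq2 adjusted p = 6.98e-07). Trib3 had 2.18 ± 0.47 (edgeR FDR = 0.179) and Asns 1.07 ± 0.27 (edgeR FDR = 0.236). Gdf15 and Sesn2 were not called by either tool in O vs A, at -0.92 and 0.52. Sesn2 thus had the sign of the list median and Gdf15 the opposite sign.

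Across the 14 libraries the 10 genes did not move as 1 block. Unless named otherwise, the values in this paragraph are Pearson r of log2(CPM + 1) over the 14 libraries, which share mice and GC trends. Cdkn1a went with Sesn2 (0.89, GC-corrected 0.73), Zmat3 (0.83, GC-corrected 0.83) and Cdkn2b (0.78, GC-corrected 0.61), and Cdkn2b with Sesn2 (0.93, GC-corrected 0.86). Without O1 and OA2 these were, in the same order, 0.82, 0.79, 0.63 and 0.89 before GC correction. Spearman rho over all 14 libraries was 0.70, 0.86, 0.37 and 0.81, so Cdkn1a and Cdkn2b were less alike in rank. Mdm2, Ccng1 and Trp53inp1 went together before correction, with 0.92 for Mdm2 and Ccng1, 0.95 for Ccng1 and Trp53inp1 and 0.83 for Mdm2 and Trp53inp1. After GC correction these were 0.14, -0.13 and 0.88, and with O1 and OA2 also left out 0.63, 0.55 and 0.85. Cdkn1a and Ccng1 turned from -0.28 to 0.82, and without O1 and OA2 from 0.07 to 0.75. Corrected Ccng1 itself went with the GC trend of the library at 0.64, so its corrected values here still carry a GC trend.

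The summed level of the 10 proliferation genes was lowest in O1, at 216.0 CPM, and lay between 714.6 and 1496.3 CPM in the other 13 libraries. O1 was also the library with the most Cdkn1a and Cdkn2a. Across the 14 libraries Cdkn1a had an r of -0.75 with that sum (Spearman rho -0.81, GC-corrected r -0.67), Sesn2 -0.72 (GC-corrected -0.48) and Zmat3 -0.61 (GC-corrected -0.60). Without O1 and OA2 these were -0.43, -0.26 and -0.50, and with GC correction as well -0.34, -0.18 and -0.43. Cdkn2a had -0.55 over all 14 libraries and 0.12 without O1 and OA2, so its relation rested on those libraries.

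**Figure D4:**
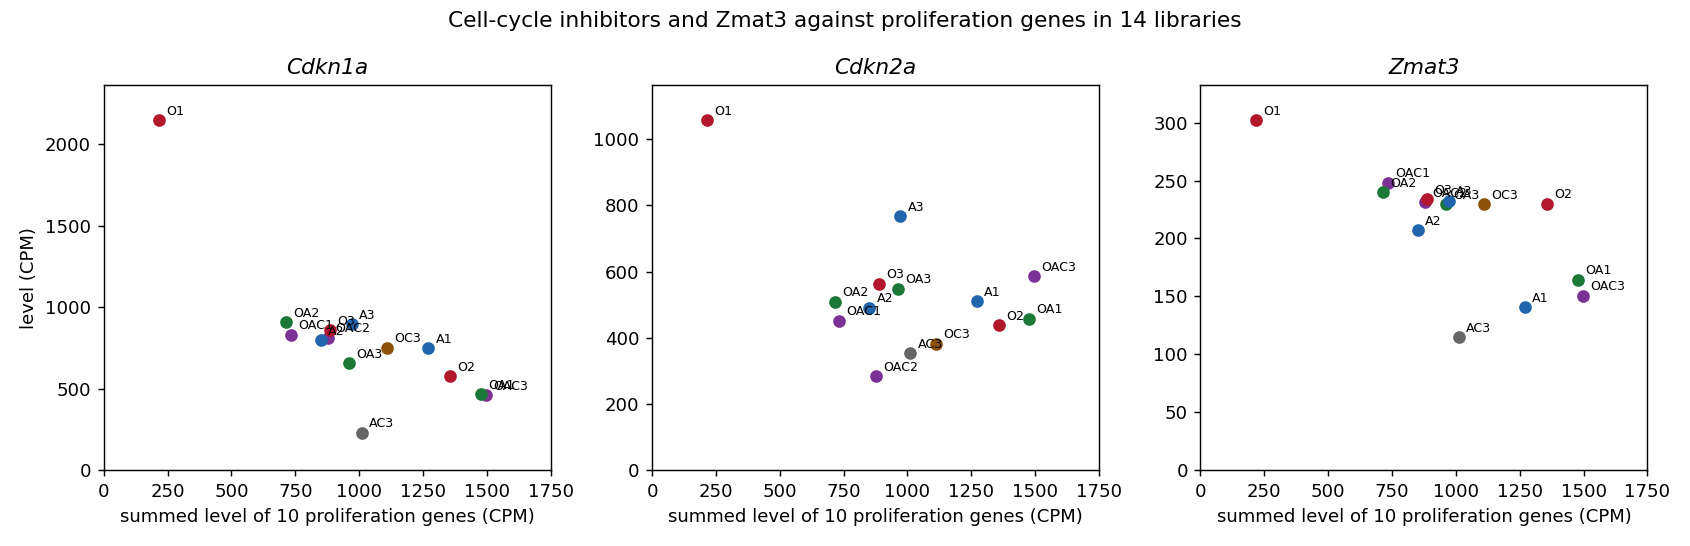
Level of Cdkn1a, Cdkn2a and Zmat3 (vertical axes, CPM, from 0) against the summed level of 10 proliferation genes (horizontal axes, CPM, from 0) in the 14 libraries, labelled by name and coloured by group. O1 stands alone at 216.0 CPM of proliferation genes and is the highest for all 3.

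The genes whose pattern over the 14 libraries was most like that of Cdkn1a, among 9727 genes averaging at least 5 CPM, were Agpat4 (r = 0.921), Orai2 (0.917), Ptpn14 (0.915), Gne (0.913) and Ephx1 (0.912). Their GC-corrected r was 0.79 to 0.88. For Cdkn2a they were Nudt22 (r = 0.909), Gsto1 (0.892), Fam83h (0.875), Dusp14 (0.869) and Mrpl38 (0.864), with a GC-corrected r of 0.68 to 0.87. For Gdf15 likeness was weaker, with Slc15a4 (r = 0.813), Tesk2 (0.811), Tmem53 (0.807), Mad2l2 (0.775) and Gpnmb (0.756), or 0.64 to 0.77 after GC correction. These are the highest of many r values from libraries in which O1 stood apart, and they describe likeness only.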

How the data were processed

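RNA was sequenced strand-specifically after oligo(dT) enrichment, per the labels' protocols. The deposited table holds whole-number counts per gene made by the authors. CASAVA 1.8.0, bedtools 2.11 and build mm9 were used, per the submitters' processing notes, while the aligner and strand setting were not given in the sources used here. Overlapping or near-identical genes are therefore uncertain.

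Tested genes reached 1 CPM in 3 or more of the 14 libraries. The test was edgeR's quasi-likelihood F (edgeR 4.0.16, R 4.3.3; TMM, robust, 6 group means, 8 residual degrees of freedom), with Benjamini-Hochberg FDR per comparison (threshold 0.05). A positive log2 fold change is higher in the group named first. DESeq2 1.42.0 was the second test. Both were also run on simulated counts with known changes in O vs A. The simulation held no GC trend, so it does not cover that property of the libraries. GC correction took off a lowess trend (span 0.3) per library. GC content was had for 93.5% of genes, from an annotation of a later build. Alternatives covered scaling, filters, libraries, GC content and a replicate block.

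The 10 genes and the lists were chosen with earlier results of these data known. Named were all 10 genes, in each comparison those without overlap and the one with the lowest p, up to 3 genes of lowest p per list, the locus neighbours, and the 5 genes most like Cdkn1a, Cdkn2a and Gdf15. A gene that this rule also names is not reported here.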

Additional observations from a re-analysis of the deposited data

Results flagged for a closer look

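Among the 6 unipotent libraries O1 stood far from the other 5 for 3 of the 10 genes, by Dixon's gap test at 95% (critical share of the range 0.625). Cdkn1a was at 2147.2 CPM in O1 and at 576.8 to 896.7 CPM in the others, a gap of 0.796 of the range. Cdkn2b was at 288.2 CPM against 133.4 to 176.1 CPM (0.724), and Sesn2 at 275.2 CPM against 111.4 to 156.8 CPM (0.723). After GC correction O1 held 1744.3, 218.9 and 198.9 CPM, against highest values of 889.3, 186.3 and 168.6 CPM in the others. The gap was then 0.771 of the range for Cdkn1a, but 0.366 for Cdkn2b and 0.311 for Sesn2, both below the critical share. O1 also had the lowest proliferation sum and the most Cd74 and Lyz2, and the part of these in the result was not tested. In all, 20 groups were examined and chance marks about 1 in 20. The 3 flags all fall on O1, in genes that went together over the 14 libraries (r of 0.78 to 0.93). They are not 3 separate results, and their number cannot be set against chance. The 6 unipotent libraries also join 2 groups, O and A.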

How the results depend on the processing

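No alternative called any of the 10 genes: the count was 0 in all 118 recomputed counts over the 7 comparisons and 22 alternative settings, and the lowest adjusted p was 0.152 (Gdf15 in O vs A without OA2 and O1). In the main settings edgeR called at most 0.00720% of all genes in a comparison and DESeq2 at most 3.03%. With so few calls over all genes, a count of 0 among 10 says little about these genes in particular. Of the log2 fold changes recomputed for 9 pairs of gene and comparison, 148 kept their direction and 2 turned. Both were Sesn2 in OAC vs OA, at 0.01 without OA2 and O1 and 0.04 without OA2. Leaving out 1 library at a time moved Sesn2 between -0.40 and 0.04 there. All 120 recomputed mean levels stayed within 1 SD. O1 moved Cdkn1a in OA vs O (to -0.08), Cdkn2a in OAC vs O (to -0.19) and Cdkn2b in O vs A (to 0.16). The GC correction of levels and the Gdf15 value were added after seeing the data.

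With the replicate block 0 of the 10 genes were called in each comparison, and Mdm2 in the multipotent vs unipotent comparison was at -1.18 (edgeR FDR = 0.937), or -1.13 with GC correction. Only 11 of 18 same-numbered pairs had deviations correlated above 0.1 (-0.64 to 0.77), and the block was not taken as a pairing. All 6 pairs of number 3, the pools, lay above it (0.26 to 0.77). Each of the 10 genes had at least 54 reads in each library.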

Other observations

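Of 11 listed genes associated with senescence, 8 were tested and edgeR called 0 in either direction in each comparison. All of them but Lmnb1, a nuclear lamin gene, encode secreted proteins. DESeq2 called Mmp3 higher and Igfbp7 lower in O vs A. There DESeq2 called 3.03% of all genes. Igfbp7 stood at 154.2, 131.8 and 182.9 CPM in the O libraries and at 605.7, 467.4 and 467.7 CPM in the A libraries, which do not overlap (log2 fold change -1.72 ± 0.42, SE, edgeR FDR = 0.223, DESeq2 adjusted p = 0.0104). Mmp3, a matrix metalloproteinase, was at 37.6 CPM in O1, at 1.09 and 2.14 CPM in O2 and O3 and at most 0.419 CPM in A. O1 thus held the most Mmp3 of the O libraries, but it did not have the highest sum of the list. The summed level of the 11 genes was 968.4 CPM in O1, within a range from 578.0 CPM in O2 to 2193.1 CPM in A1. That sum includes Lmnb1, which was lowest in O1, at 15.7 CPM.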
